A study of Mus musculus with 6 samples.

Results

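The genes of cholesterol synthesis and of its control by the sterol regulatory element binding proteins (SREBPs) were examined in GC-2spd cells under hypoxia. The set holds 28 genes, a list drawn up by pathway role, with earlier results of these data known: 18 synthesis enzymes, 5 genes of the SREBP system, 3 genes of sterol transport inside the cell and 2 genes of sterol efflux. All 28 were found among 43412 annotated genes, and 27 of them were among the 13749 genes tested. Abcg1, an efflux transporter, was listed at 0 in all 6 libraries and could not be tested.

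GC-2spd is an immortalized cell line derived from mouse spermatocytes, here with a C57BL/6J background and bought from a cell bank. Poly(A) RNA was sequenced from 3 libraries of normoxic cells (21% O2) and 3 libraries of hypoxia-treated cells (1% O2), all grown in the same serum-containing medium, and no allele or further agent separated the groups. Separate cultures for each library are not stated in the labels, so the p-values measure only the spread between these libraries. The depth was 5.75 to 6.72 gigabases of aligned sequence per library.

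Cells build cholesterol from acetyl-CoA through mevalonate, farnesyl diphosphate and squalene. Several of the steps after squalene consume molecular oxygen, and lanosterol is the first sterol with the ring system. SREBP2, encoded by Srebf2, is held in the endoplasmic reticulum by the escort protein SCAP and the retention proteins INSIG1 and INSIG2 when sterols are plentiful. When sterols fall, SCAP carries it to the Golgi, where proteases release the part that enters the nucleus and binds sterol regulatory elements, usually beside sites for NF-Y (CCAAT) and Sp1 (GC boxes).

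The labels were first checked against known genes. All 7 targets of the hypoxia-inducible factors that were listed for this check were higher in every hypoxic library than in any normoxic one, with a summed level of 2068 to 2082 TPM (a gene's transcripts relative to all transcripts, scaled for length) in normoxia and 6607 to 6837 TPM in hypoxia. The germ cell origin did not show in the RNA. None of 12 germ cell markers reached 1 TPM in any library, 5 of them (among these Prm2, Tnp1 and Acr) were listed at 0 throughout, and their summed level was 0.841 to 1.12 TPM in normoxia and 0.222 to 0.755 TPM in hypoxia. The 6 fibroblast and myoid markers summed to 2283 to 2352 TPM in normoxia and 2721 to 2976 TPM in hypoxia, nearly all from Col1a1 and Col1a2, while Thy1 was listed at 0. The higher sum in hypoxia came from Col1a1 (1161 ± 53.8 to 1720 ± 48.0 TPM, SD, n = 3), whereas Col1a2 was not called and Pdgfra of the same list was called lower (5.02 ± 0.773 to 1.54 ± 0.218 TPM, SD, n = 3). The 6 Sertoli cell markers summed to 42.4 to 54.0 TPM and 44.7 to 56.4 TPM (with Sox9 called higher, from 6.41 ± 0.533 to 13.3 ± 0.395 TPM, SD, n = 3), the 6 Leydig cell markers to 3.61 to 6.88 TPM and 7.17 to 10.6 TPM with Hsd3b1 and Lhcgr at 0, the 4 macrophage markers to 7.20 to 8.11 TPM and 10.5 to 11.5 TPM with Ptprc and Adgre1 at 0, and the 4 endothelial markers to 0.896 to 2.11 TPM and 0.279 to 1.501 TPM with Cdh5 at 0, in normoxia and hypoxia respectively. Most of the Sertoli sum was Gata4 (39.9 ± 7.38 to 33.8 ± 5.99 TPM, SD, n = 3), which was not called. Rhox5 was not called either, and Amh, Wt1 and Cldn11 were too low to be tested. The higher Leydig sum came from Insl3 (2.65 ± 1.39 to 7.36 ± 1.57 TPM, SD, n = 3), and Star was not called. Cyp11a1 of that list fell (0.848 ± 0.438 to 0.0520 ± 0.0245 TPM, SD, n = 3), at values too low to be tested. The higher macrophage sum came mostly from Cd68 (6.41 ± 0.689 to 9.41 ± 0.932 TPM, SD, n = 3), and Csf1r was not called. Mitochondrially encoded transcripts made up 9.27% ± 0.022 of annotated TPM in normoxia but 5.55% ± 0.058 in hypoxia (SD, n = 3), and the share of TPM outside annotated genes was 1.86% to 2.75% and 2.30% to 5.17%. When the mitochondrial genes were left out and TPM rescaled to the rest, 11 of the 28 genes were called higher and 6 lower, against 12 and 6 with them, and Npc2 was no longer called (adjusted p = 0.0709, limma). The part of the other shifts in the results that follow was not tested. In bulk RNA, fewer cells of a kind and less RNA per cell cannot be told apart.

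Promoter sequences were read from RefSeq for 22 of the 28 genes (build GRCm38.p6, which has the coordinates of mm10). Fdps, Fdft1, Sqle, Stard4 and Npc1, all called higher in hypoxia, had no entry, and neither had the untested Abcg1. The motif counts thus leave out mainly genes that were higher. The RefSeq start sites of Pmvk and Tm7sf2 lay 453 and 523 bases inside the annotated gene. The 250 bases read for these 2 genes thus lay wholly within it, and both are counted among the 22. Shown are the 250 bases before the start site of genes that were higher in hypoxia (Hmgcs1, Srebf2, Lss and Insig2) and lower (Mvk and Abca1), so that the motifs of both directions can be compared. For Insig2 the promoter shown is the one at the start of the locus assembled from the reads. For the others it is the one nearest the annotated start. The genes shown were chosen with their values known. Capitals mark the letters TCACNCCAC (a sterol regulatory element), CCAAT and ACGTG (the core of the site of hypoxia-inducible factors), each on either strand, so CCAAT on the opposite strand reads ATTGG.
Hmgcs1, chr13:119690101-119690350, plus strand: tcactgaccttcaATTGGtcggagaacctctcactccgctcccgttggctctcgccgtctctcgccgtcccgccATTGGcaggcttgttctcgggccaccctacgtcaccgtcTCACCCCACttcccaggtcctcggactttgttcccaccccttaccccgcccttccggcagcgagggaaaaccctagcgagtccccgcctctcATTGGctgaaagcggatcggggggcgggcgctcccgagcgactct
Srebf2, chr15:82147019-82147268, plus strand: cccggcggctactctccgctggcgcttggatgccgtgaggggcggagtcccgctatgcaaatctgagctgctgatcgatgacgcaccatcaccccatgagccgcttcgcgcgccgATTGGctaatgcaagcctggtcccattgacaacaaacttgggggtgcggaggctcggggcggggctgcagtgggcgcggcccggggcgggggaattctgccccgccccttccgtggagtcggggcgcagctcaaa
Lss, chr10:76531355-76531604, plus strand: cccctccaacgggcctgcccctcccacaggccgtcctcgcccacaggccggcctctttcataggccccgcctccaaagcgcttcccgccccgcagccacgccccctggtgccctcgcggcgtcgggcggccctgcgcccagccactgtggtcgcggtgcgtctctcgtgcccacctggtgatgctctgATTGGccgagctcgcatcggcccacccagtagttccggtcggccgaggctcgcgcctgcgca
Mvk, chr5:114444019-114444268, plus strand: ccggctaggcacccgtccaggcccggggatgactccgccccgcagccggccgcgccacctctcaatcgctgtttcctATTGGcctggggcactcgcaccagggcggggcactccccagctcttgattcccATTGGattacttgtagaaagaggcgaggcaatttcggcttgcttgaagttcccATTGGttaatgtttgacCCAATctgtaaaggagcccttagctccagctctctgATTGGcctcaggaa
Abca1, chr4:53159896-53160145, minus strand: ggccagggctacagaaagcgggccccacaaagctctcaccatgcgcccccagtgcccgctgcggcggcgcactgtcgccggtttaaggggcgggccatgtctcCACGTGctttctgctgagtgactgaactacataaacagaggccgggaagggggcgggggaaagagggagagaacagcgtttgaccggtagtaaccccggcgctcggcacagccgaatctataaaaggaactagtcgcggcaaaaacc
Insig2, chr1:121328025-121328274, minus strand: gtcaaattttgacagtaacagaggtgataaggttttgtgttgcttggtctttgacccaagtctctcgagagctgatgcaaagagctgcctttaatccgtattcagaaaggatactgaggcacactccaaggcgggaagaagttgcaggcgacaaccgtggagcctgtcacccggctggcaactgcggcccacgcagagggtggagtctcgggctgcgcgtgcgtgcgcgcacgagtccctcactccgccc

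The exact element TCACNCCAC was found in 1 of the 22 promoters, that of Hmgcs1, where it begins 137 bases before the start, against 1.05% of all 32851 RefSeq promoters. With up to 1 mismatch it was found in 8 of 22 (36.4%, against 20.7% of all promoters). CCAAT was found in 17 of 22 (77.3%, against 33.8%), namely in 7 of 7 matched genes that were higher, 4 of 6 that were lower and 6 of 9 that were not called. The 7 include Insig2 by its promoter at the annotated start, where the locus assembled from the reads began in 0 of 6 libraries. Mvk, which fell, holds 5 copies of it in these 250 bases, and Abca1 holds none. The GC box GGGCGG was found in 18 of 22 (81.8%, against 32.7%), and ACGTG in 4 of 22 (18.2%, against 16.6%). In the same order of higher, lower and not called, GGGCGG was found in 6 of 7, 5 of 6 and 7 of 9. ACGTG was found in 1 of 7, 2 of 6 and 1 of 9, and the element with up to 1 mismatch in 4 of 7, 1 of 6 and 3 of 9. The palindrome CACGTG, as in Abca1, holds ACGTG on both strands at overlapping positions. These shares are descriptions, not tests, and promoters of expressed genes differ from promoters at large. Among the 11697 promoters of tested genes, CCAAT was found in 36.1%, GGGCGG in 59.0%, ACGTG in 21.7%, TCACNCCAC in 0.983% and the form with up to 1 mismatch in 21.95%. Both background shares took in every RefSeq promoter, so a gene could enter them more than once. In the counts of the 22 genes, a gene with several RefSeq promoters was represented by the one nearest its annotated start. Choosing instead the one nearest the start of the locus that StringTie assembled from the reads, a choice made after the first counts had been seen, changed the promoter of Dhcr7, Srebf1 and Insig2 and gave CCAAT in 16, GGGCGG in 20, ACGTG in 4, TCACNCCAC in 1 and the mismatched form in 9 of 22. For Insig2 the assembled locus began at the start site of the promoter printed above in 6 of 6 libraries. The other Insig2 promoter, at the annotated start, holds 3 copies of CCAAT, and the printed one holds none.

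Over the whole set, 12 genes were higher in hypoxia-treated cells, 6 were lower and 9 were not called by limma on log2(TPM + 1) at an adjusted p below 0.05. Of all tested genes 17.9% were called higher and 36.1% lower. The median log2 fold change of the 27 tested genes was 0.12, against −0.13 for all tested genes, and 19 of the 27 lay above that median. The 3 normoxic and 3 hypoxic values did not overlap for the same numbers of genes, 12 higher and 6 lower, whereas 21.4% of all tested genes were higher and 41.0% lower without overlap. Most changes were small. An absolute log2 fold change of 0.5 or more was reached by 6 of the 27 genes (Lss, Insig2, Stard4, Srebf2, Mvk and Abca1) and by 31.1% of all tested genes. The count of calls depends on the scaling of the libraries. Scaling by the median ratio, which moved the median of all genes to 0.00, gave 16 higher and 4 lower, where 26.3% of all genes tested were called higher and 26.3% lower. Quantile normalization gave 15 higher and 4 lower, where the shares of all genes were 26.0% and 26.5%.

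**Figure D1:**
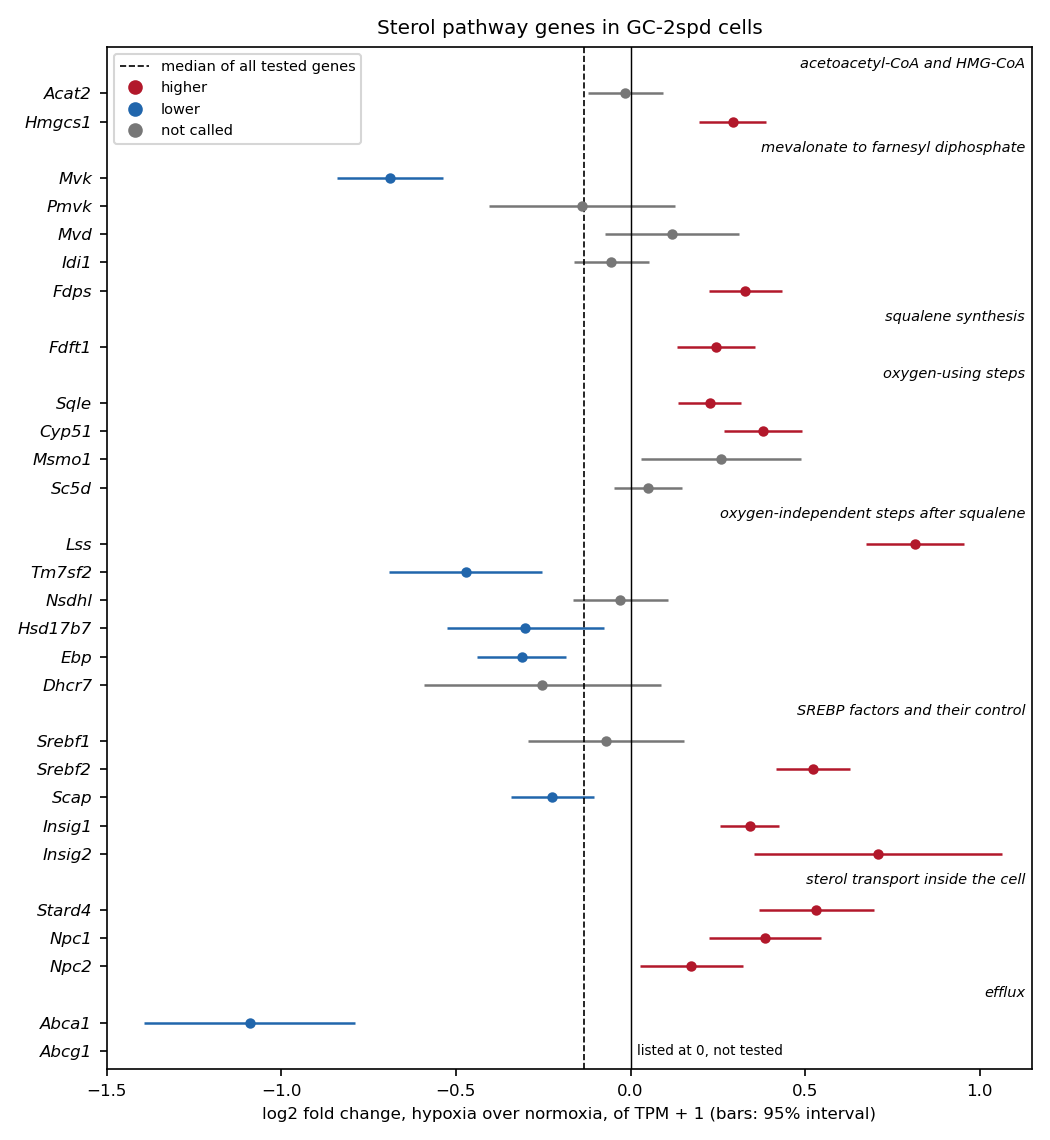
Log2 fold change of TPM + 1, hypoxia over normoxia, with 95% intervals from limma, for 27 tested genes grouped by role. Red points were called higher, blue points lower and grey points were not called. The dashed line is the median of all tested genes, −0.13. Lss and Insig2 lie farthest to the right, and Abca1 and Mvk farthest to the left.

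The first part of the pathway did not move as a block. Hmgcs1, which makes HMG-CoA, was at 286, 275 and 290 TPM in normoxia and at 340, 359 and 344 TPM in hypoxia, a log2 fold change of 0.29 ± 0.04 (SE; adjusted p = 0.00101, limma). Fdps, which makes farnesyl diphosphate, had the highest level of the set and rose from 457 ± 17.8 to 574 ± 19.7 TPM (SD, n = 3; log2 fold change 0.33, adjusted p = 0.000871, limma). Fdft1, the squalene synthase, rose from 90.03 ± 4.18 to 107 ± 1.28 TPM (SD, n = 3; log2 fold change 0.24, adjusted p = 0.00456, limma). These 3 genes rose in all 3 hypoxic libraries relative to every normoxic one.

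Mvk, the mevalonate kinase, went the other way. Its level was 52.7, 55.5 and 60.8 TPM in the normoxic libraries and 33.9, 34.2 and 35.3 TPM in the hypoxic ones. The groups were well apart, with a log2 fold change of −0.69 ± 0.06 (SE; adjusted p = 0.000178, limma). Mvk is at chr5:114444269-114460591 in mm10, on the plus strand. The ratio of Fdps to Mvk within a library was 8.13 ± 0.457 in normoxia and 16.7 ± 0.839 in hypoxia (SD, n = 3).

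Of the other enzymes of this stretch, Acat2 (acetoacetyl-CoA thiolase), Pmvk (phosphomevalonate kinase), Mvd (mevalonate diphosphate decarboxylase) and Idi1 (isopentenyl diphosphate isomerase) were not called. Their log2 fold changes were −0.01 (95% interval −0.12 to 0.09), −0.14 (−0.41 to 0.13), 0.12 (−0.07 to 0.31) and −0.05 (−0.16 to 0.05). Pmvk had 1 low hypoxic library, with 64.0, 47.8 and 62.1 TPM in hypoxia against 60.4 to 65.9 TPM in normoxia. In that hypoxic library and in 1 normoxic one the assembled Pmvk locus was joined to neighbouring sequence. Acat2 shares 1477 bases at 97.7% identity with Acat3, and Idi1 shares 684 bases at 100% identity with Gm13502, so reads of these pairs may have been split between them. Fdps shares 26.7% of its exon bases with Gm43738 on the same strand, and Fdft1 shares 18.3% with Ctsb on the opposite strand. Whether the counting used strand is not given in the sources used here.

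The 4 enzymes that use molecular oxygen were described apart from the rest. Sqle, the squalene epoxidase, was at 147, 142 and 144 TPM in normoxia and at 166, 172 and 169 TPM in hypoxia (log2 fold change 0.23 ± 0.04, SE; adjusted p = 0.00226, limma). Cyp51, the lanosterol demethylase, was at 93.6, 99.7 and 100.1 TPM and then at 123, 128 and 131 TPM (log2 fold change 0.38 ± 0.05, SE; adjusted p = 0.000611, limma). Both rose without overlap of the groups.

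Msmo1, a sterol methyl oxidase, was at 135, 102 and 113 TPM in normoxia and at 134, 143 and 140 TPM in hypoxia. The first normoxic library lay within the hypoxic range, and the gene was not called (log2 fold change 0.26, 95% interval 0.03 to 0.49, adjusted p = 0.0583, limma). Without that library it was called higher (log2 fold change 0.37, adjusted p = 0.00549, limma). Sc5d, the lathosterol desaturase, was at 116, 111 and 111 TPM and then at 117, 114 and 119 TPM, with overlap and no call (log2 fold change 0.05, 95% interval −0.05 to 0.15).

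The oxygen-using group thus had 2 of 4 genes higher and none lower, with a median log2 fold change of 0.24. The 14 other enzymes had 4 higher and 4 lower, with a median of −0.04. Beside these counts, 17.9% of all tested genes were called higher and 36.1% lower. No test was made between the 2 groups of enzymes. With both other scalings all 4 oxygen-using enzymes were called higher, and the share of all tested genes called higher also went up, from 17.9% to 26.3% (median ratio) and 26.0% (quantile). With median-ratio scaling the median of the 14 turned positive, at 0.10. Summed over the 18 enzymes, the level was 2066 ± 54.1 TPM in normoxia and 2321 ± 15.5 TPM in hypoxia (SD, n = 3). The oxygen-using enzymes held 22.2% to 23.6% of that sum in normoxia and 23.4% to 24.1% in hypoxia, so the groups overlapped in this share.

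**Figure D2:**
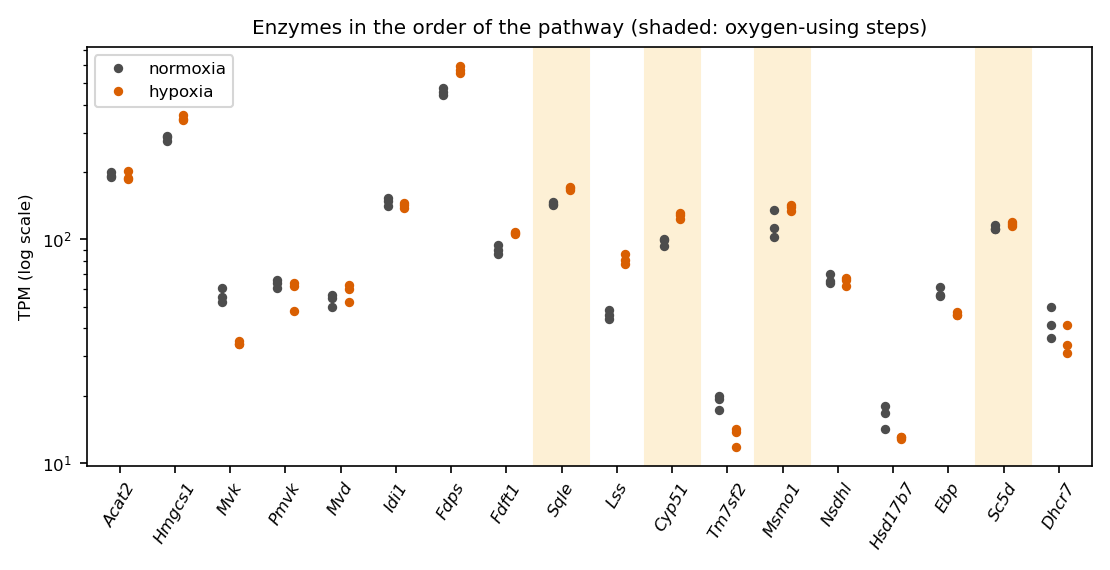
TPM on a log scale of the 18 synthesis enzymes in the order of the pathway, in each of 3 normoxic (grey) and 3 hypoxic (orange) libraries. Shaded columns are the 4 oxygen-using steps. Mvk fell and Lss rose without overlap, and 8 of the 18 enzymes were not called.

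After squalene epoxidation, Lss, the lanosterol synthase that closes the sterol rings, had the largest increase of the 27 tested genes, although without hypoxia replicate 1 it came to 0.77 on the log2 scale and Insig2 to 0.85. Its level was 48.2, 43.9 and 45.7 TPM in normoxia and 86.2, 80.6 and 77.9 TPM in hypoxia. Every hypoxic library was far above every normoxic one, with a log2 fold change of 0.82 ± 0.06 (SE; adjusted p = 6.57e-05, limma). The ratio of Lss to Sqle, the enzyme just before it, went from 0.318 ± 0.00921 to 0.482 ± 0.0320 (SD, n = 3).

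The 5 other oxygen-independent enzymes after squalene were lower (3) or not called (2), where 36.1% of all tested genes were called lower. Tm7sf2, a sterol C14 reductase, fell from 18.8 ± 1.37 to 13.3 ± 1.25 TPM (SD, n = 3; log2 fold change −0.47, adjusted p = 0.00474, limma). Ebp, a sterol isomerase, fell from 58.0 ± 2.93 to 46.5 ± 0.978 TPM (SD, n = 3; log2 fold change −0.31, adjusted p = 0.00274, limma). Hsd17b7, a sterol ketoreductase, fell from 16.3 ± 1.97 to 13.0 ± 0.135 TPM (SD, n = 3; log2 fold change −0.30, adjusted p = 0.0321, limma), a call that was lost in 8 of 16 alternative settings. Tm7sf2 shares 12.1% of its exon bases with Vps51 on the same strand. Its assembled locus began upstream of Tm7sf2 in 4 of 6 libraries and did not follow the annotated value, at 52.2, 49.5 and 87.9 TPM in hypoxia against 15.9 and 53.8 TPM in 2 normoxic libraries and no locus in the other. The part of this joining in the fall of Tm7sf2 was not tested.

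Nsdhl, a sterol dehydrogenase, and Dhcr7, which makes cholesterol from its direct precursor, were not called. Nsdhl had a log2 fold change of −0.03 (95% interval −0.17 to 0.11). Dhcr7 was at 41.4, 49.9 and 36.4 TPM in normoxia and at 33.8, 41.6 and 31.2 TPM in hypoxia, so the groups overlapped (log2 fold change −0.25, 95% interval −0.59 to 0.09). Its highest assembled locus did not follow the annotated value, at 64.5, 64.7 and 79.4 TPM in normoxia and 72.7, 43.2 and 68.8 TPM in hypoxia. The part of this difference in the values of Dhcr7 was not tested.

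Within the SREBP system the 2 SREBP genes differed. Srebf2, which encodes the factor of the cholesterol genes, was at 191, 184 and 201 TPM in normoxia and at 270, 278 and 281 TPM in hypoxia, a log2 fold change of 0.52 ± 0.04 (SE; adjusted p = 0.000127, limma). Srebf1, which encodes the factor known for fatty acid genes, was at 140, 115 and 142 TPM and then at 117, 125 and 134 TPM, with overlap and no call (log2 fold change −0.07, 95% interval −0.29 to 0.15). The ratio of Srebf1 to Srebf2 within a library was 0.622 to 0.731 in normoxia and 0.431 to 0.477 in hypoxia, without overlap. A permutation test of 3 against 3 libraries cannot go below 0.10, so no p is given for the ratios.

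Scap, the escort of the SREBPs, was at 30.6, 31.3 and 31.2 TPM in normoxia and at 25.8, 26.7 and 26.8 TPM in hypoxia. It fell slightly (log2 fold change −0.22 ± 0.05, SE; adjusted p = 0.0085, limma), and the call was lost with both other scalings (adjusted p = 0.186 and 0.269, limma). The ratio of Srebf2 to Scap was 6.20 ± 0.293 in normoxia and 10.5 ± 0.0447 in hypoxia (SD, n = 3).

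Both retention genes rose. Insig1 was at 236, 231 and 241 TPM in normoxia and at 297, 303 and 298 TPM in hypoxia (log2 fold change 0.34 ± 0.04, SE; adjusted p = 0.000285, limma). Insig2 was at 49.0, 45.5 and 48.3 TPM and then at 63.7, 75.8 and 99.6 TPM (log2 fold change 0.71 ± 0.15, SE; adjusted p = 0.0066, limma). The hypoxic libraries differed more among themselves for Insig2 than for Insig1, and without the highest of them the log2 fold change of Insig2 was 0.54 (adjusted p = 0.00416, limma). The assembled Insig2 locus also did not overlap between groups, at 56.0 to 67.1 TPM in normoxia and 78.1 to 106.5 TPM in hypoxia. The ratio of Insig2 to Insig1 was 0.197 to 0.208 in normoxia and 0.215 to 0.335 in hypoxia, a mean difference of 0.38 on the log2 scale that came to 0.20 without hypoxia replicate 3. Insig1 remained the more abundant of the pair in every library.

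**Figure D3:**
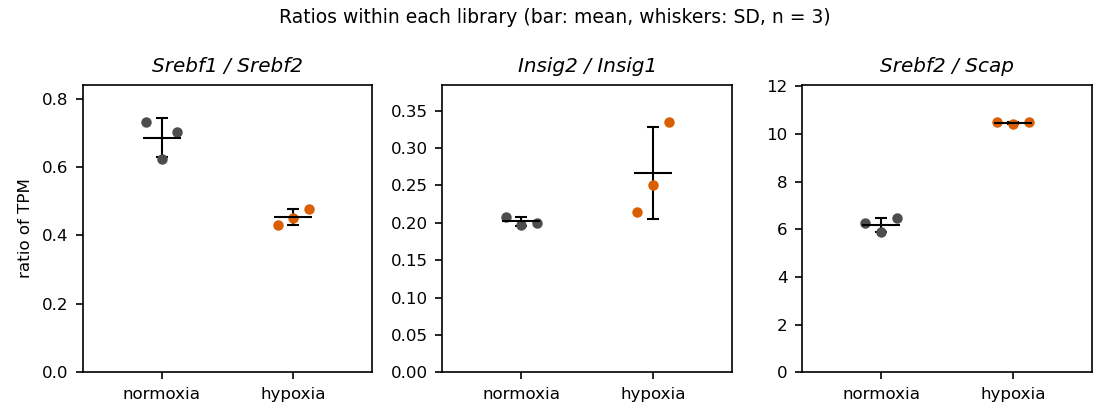
Ratio of TPM of Srebf1 to Srebf2, Insig2 to Insig1 and Srebf2 to Scap in each library, with the mean (bar) and SD (whiskers, n = 3). The Srebf1 to Srebf2 ratio was 0.431 to 0.477 in hypoxia, below all normoxic libraries, and the Srebf2 to Scap ratio was near 10.5 in all 3 hypoxic libraries.

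All 3 genes of sterol transport inside the cell were called higher, where 17.9% of all tested genes were. Stard4, a carrier of cholesterol between membranes, was at 82.6, 83.2 and 86.7 TPM in normoxia and at 126, 110 and 131 TPM in hypoxia, with no overlap (log2 fold change 0.53 ± 0.07, SE; adjusted p = 0.000781, limma). Npc1, which exports cholesterol from lysosomes, rose from 18.7 ± 0.314 to 24.7 ± 1.66 TPM (SD, n = 3; log2 fold change 0.38, adjusted p = 0.00292, limma). Its soluble partner Npc2 rose from 99.8 ± 3.78 to 113 ± 7.72 TPM (SD, n = 3; log2 fold change 0.17, adjusted p = 0.0483, limma), close to the threshold, and the call was lost in 10 of 16 alternative settings.

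Abca1, which loads cholesterol onto apolipoproteins outside the cell, had the largest decrease of the set. It was at 3.16, 3.05 and 2.85 TPM in normoxia and at 0.822, 1.00 and 0.841 TPM in hypoxia, a log2 fold change of −1.09 ± 0.13 (SE; adjusted p = 0.000473, limma). The level was low, and Abca1 passed the filter on low values through its normoxic libraries. The pseudocount of 1 compresses the change, which was −1.66 on the log2 scale with a pseudocount of 0.1. Abca1 was assembled as 1 locus in each normoxic library, which spanned the whole gene in 2 of them and 14.1% of it in the other, and as 2 to 4 fragments in each hypoxic library.

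**Figure D4:**
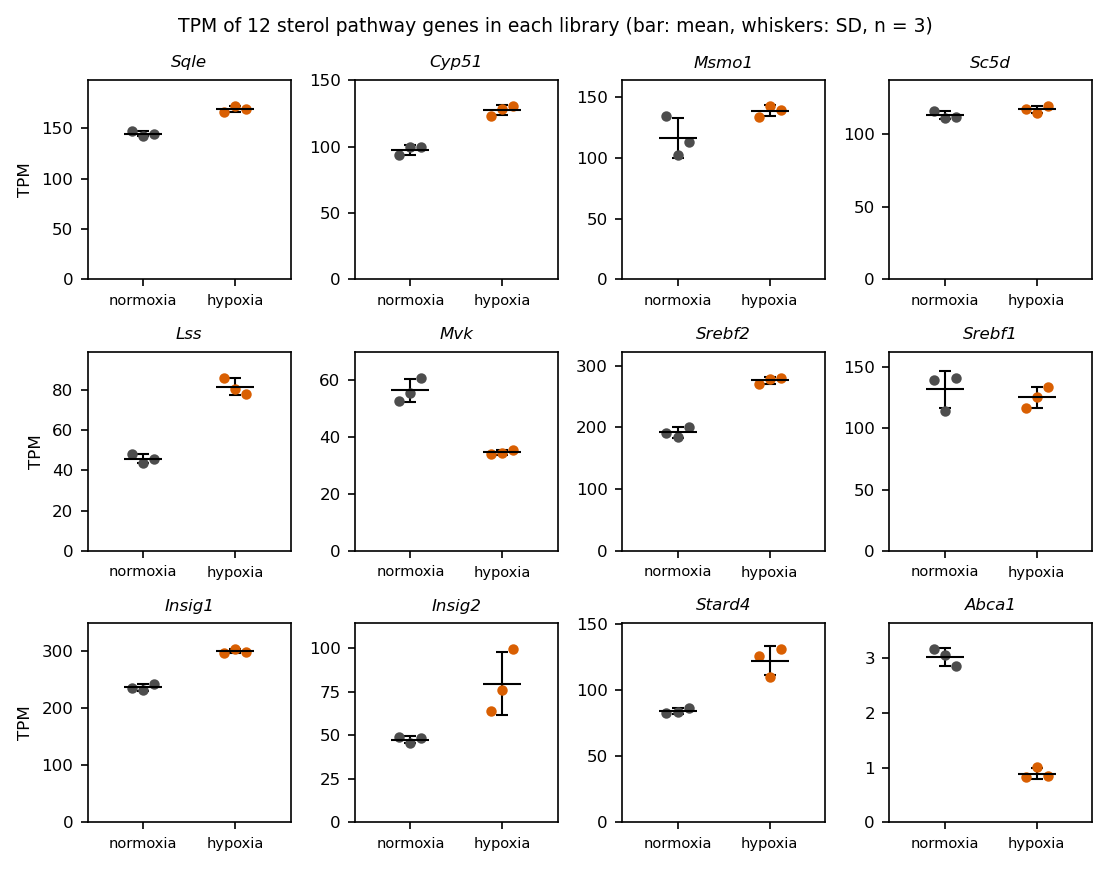
TPM of 12 sterol pathway genes in each library, with the mean (bar) and SD (whiskers, n = 3), each panel on its own axis from 0. Normoxic and hypoxic libraries do not overlap for Lss, Mvk, Srebf2, Insig1, Insig2, Stard4, Abca1, Sqle and Cyp51, and they overlap for Msmo1, Sc5d and Srebf1.

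In the order of levels, Fdps, Hmgcs1 and Insig1 came first in both groups, Abca1 was the last of the genes above 0, and the largest moves were those of Lss, from rank 21 to rank 15, and of Mvk and Insig2, from ranks 18 and 20 to ranks 22 and 16. In normoxia the neighbours Acat2 (194 ± 5.49 TPM) and Srebf2 (192 ± 8.64 TPM; SD, n = 3) did not differ beyond their spread, and neither did Idi1 (148 ± 6.03 TPM) and Sqle (144 ± 2.55 TPM).

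The neighbouring pathways were taken from lists of genes and are described by counts, beside the 17.9% of all tested genes called higher and the 36.1% called lower. Of 16 genes of SREBP processing and degradation, 2 were higher and 6 lower (median log2 fold change −0.05). The 2 proteases that cut the SREBPs in the Golgi both fell: Mbtps1 from 73.6 ± 0.232 to 51.8 ± 1.66 TPM and Mbtps2 from 38.9 ± 2.06 to 23.7 ± 2.29 TPM (SD, n = 3; log2 fold changes −0.50 and −0.69, adjusted p = 0.000159 and 0.000553, limma). Sp1, a factor that binds GC boxes, rose from 69.0 ± 2.27 to 99.2 ± 2.34 TPM (SD, n = 3; log2 fold change 0.52, adjusted p = 0.000143, limma). Sec23a, a coat protein of vesicles that leave the endoplasmic reticulum, had a log2 fold change of 0.18 (adjusted p = 0.0415, limma), and its call was lost under several settings.

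Of 18 tested genes of further sterol synthesis and uptake, 7 were higher and 6 lower (median 0.06). Tmem97, a sterol-responsive membrane protein, rose from 137 ± 4.74 to 229 ± 5.55 TPM (SD, n = 3; log2 fold change 0.74, adjusted p = 2.73e-05, limma). Mylip, a ubiquitin ligase that removes lipoprotein receptors, fell from 7.01 ± 0.331 to 3.42 ± 0.299 TPM (SD, n = 3; log2 fold change −0.86, adjusted p = 0.000441, limma). Cyb5b, an electron carrier of the mitochondrial outer membrane, fell from 109 ± 3.13 to 66.1 ± 2.79 TPM (SD, n = 3; log2 fold change −0.72, adjusted p = 5.32e-05, limma).

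Of 7 tested genes of liver X receptor targets and efflux, 1 was higher and 5 lower (median −0.37). Nr1h2, a liver X receptor, rose (log2 fold change 0.48, adjusted p = 0.00118, limma). Arl4c and Lpcat3, known targets of these receptors, fell (log2 fold changes −0.81 and −0.70, adjusted p = 0.000253 and 0.000492, limma). The median of this list lay below that of all tested genes, and Abca1 itself is not counted in it.

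Of 11 tested genes of esterification and sterol transfer, 5 were higher and 3 lower (median −0.03). Soat1, which makes cholesteryl esters, was at 26.1, 27.4 and 28.2 TPM in normoxia and at 55.8, 60.2 and 75.4 TPM in hypoxia (log2 fold change 1.19 ± 0.11, SE; adjusted p = 0.00018, limma). Nceh1, which hydrolyses cholesteryl esters, was at 16.4, 14.3 and 14.7 TPM and then at 6.96, 6.56 and 6.90 TPM (log2 fold change −1.05 ± 0.08, SE; adjusted p = 8.17e-05, limma). The ester-forming and the ester-cleaving gene thus moved in opposite directions, both without overlap. Of the oxysterol-binding protein family, Osbpl8 rose and Osbpl9 fell (log2 fold changes 1.00 and −0.39, adjusted p = 3.78e-05 and 0.000658, limma).

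Of 14 genes known as SREBP-1 fatty acid targets, 4 were higher and 4 lower (median 0.03). Lpin1, a phosphatidate phosphatase, and Scd2, a fatty acid desaturase, rose (log2 fold changes 1.25 and 0.63, adjusted p = 1.17e-05 and 1.35e-05, limma). Elovl6, a fatty acid elongase, and Fasn, the fatty acid synthase, fell (log2 fold changes −0.77 and −0.23, adjusted p = 0.000242 and 0.0088, limma). The fall of Fasn was not called with median-ratio scaling.

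Of 13 genes of the isoprenoid branches, 4 were higher and 5 lower (median −0.22). Rabggta and Rabggtb, the subunits of the enzyme that prenylates Rab proteins, rose (log2 fold changes 0.58 and 0.22, adjusted p = 0.00199 and 0.00217, limma). Pdss1, which makes the tail of ubiquinone, and Dhdds, of dolichol synthesis, fell (log2 fold changes −1.36 and −0.45, adjusted p = 0.000551 and 0.000331, limma). Of the oxysterol and bile acid list, 2 of 6 genes were tested and Cyp39a1, an oxysterol hydroxylase, fell (log2 fold change −0.53, adjusted p = 0.00563, limma). Of the steroid hormone list, 4 of 9 were tested, with Fdx1, the ferredoxin of mitochondrial cytochromes P450, higher and its reductase Fdxr lower (log2 fold changes 0.61 and −1.03, adjusted p = 0.000221 and 0.000163, limma). Srd5a1, a steroid reductase, was also called lower (log2 fold change −0.24, adjusted p = 0.0435, limma), a call lost under several settings.

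**Figure D5:**
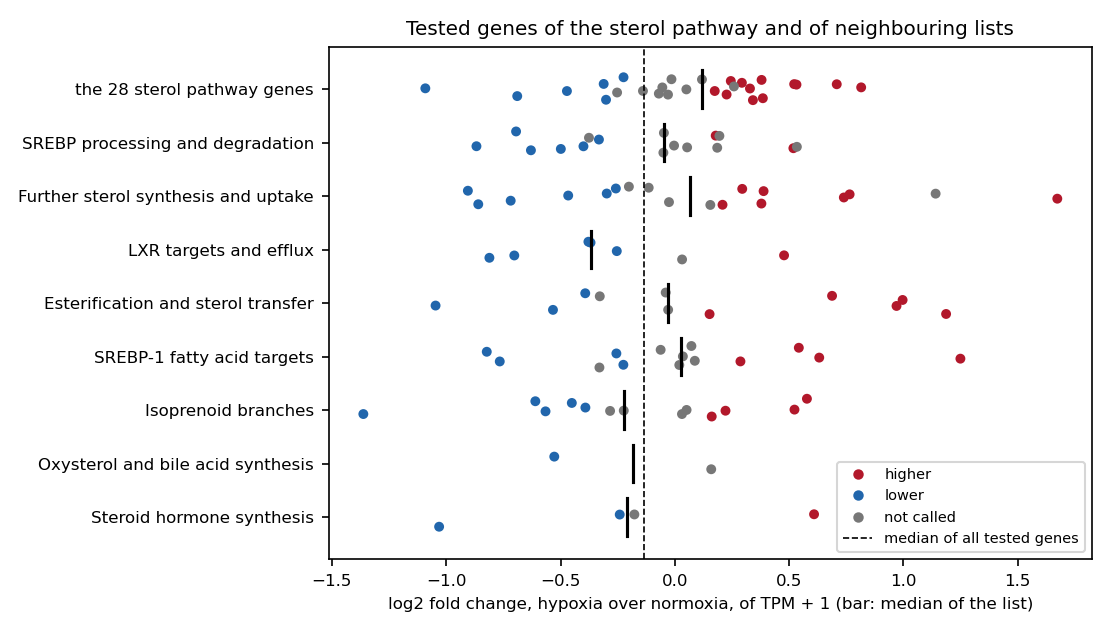
Log2 fold change of TPM + 1, hypoxia over normoxia, of each tested gene of the sterol pathway and of 8 neighbouring lists. Each point is a gene (red higher, blue lower, grey not called), the bar is the median of the list, and the dashed line is the median of all tested genes, −0.13. The sterol pathway has its median at 0.12 and the liver X receptor list at −0.37.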

How the data were processed

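Poly(A) RNA of 3 normoxic and 3 hypoxia-treated GC-2spd libraries was analysed, grouped by the sample titles. The authors trimmed reads with Cutadapt, aligned them to mm10 with HISAT2 and quantified genes with StringTie (versions and annotation release are not given in the sources used here). For each gene the deposited tables give coverage, FPKM and TPM. The deposited coverage served only for depth, as its largest ratio to FPKM, and the deposited FPKM only as an alternative. The deposited TPM lists annotated genes and assembled loci separately, and only annotated genes were analysed, with values summed per GENCODE M21 symbol. The authors tested counts with edgeR. Counts were not used here, so no counting interval is given, and log2(TPM + 1) was compared with limma 3.58.1 in R 4.3.3 (2-sided, trend of the variance on the mean) over the 13749 genes whose TPM averaged at least 1, and calls were made at 0.05 after the Benjamini-Hochberg correction. Adding 1 to each TPM understates the change of genes with low values. A p-value from 3 libraries per group is limited by that number.

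The members, the lists, the named-gene rule and the tests were chosen with earlier results of these data known. The rule names all 28 genes, and of each neighbouring list up to 2 called genes per direction with the smallest adjusted p. One further gene that the rule picks is not reported here. Values in every library are given for the oxygen-using enzymes, the SREBP system and called genes with an absolute log2 fold change of at least 0.5, and also, chosen after the values were seen, for Hmgcs1, Pmvk, Dhcr7, Soat1 and Nceh1. The promoter motifs were not planned at the outset. The promoter was first taken nearest the annotated start, and the assembled start and the background of tested genes were added after those counts had been seen. Near-identical copies were searched with blastn 2.17.0.

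Tested on simulated data for this comparison in which 200 of 13749 genes were altered, the fit found 0% of those altered by 0.25 on the log2 scale, 44.5% of those altered by 0.5 and 82.5% of those altered by 1. False calls numbered 0, 7 and 4. Many more genes were called in the real data, so these shares need not carry over. The alternatives were other pseudocounts, filters and scalings, FPKM, a fit without mitochondrial genes, a fit without the variance trend, a replicate block and leaving out each library.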

Additional observations from a re-analysis of the deposited data

How the results depend on the processing

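Of the 18 called members, 15 kept their direction and call in all of the up to 16 alternative settings that could be run for them (Abca1 in 14, since 2 filters removed it). The exceptions were Scap, lost with both scalings, Hsd17b7, lost in 8 settings, and Npc2, lost in 10. Of the 9 uncalled members, 5 were called in some setting. The median log2 fold change of the members came to 0.26 when libraries were scaled by their median ratio and to 0.22 after quantile normalization, and 4 oxygen-using enzymes were higher under each. With median-ratio scaling the median of the oxygen-using enzymes was 0.39, that of the 14 other enzymes turned to 0.10, and Acat2 turned to 0.13 (adjusted p = 0.0295, limma). The share of calls that were higher over all genes moved from 33.1% to 49.96% and 49.6% with these scalings. Among the neighbouring lists, SREBP processing had 1 to 5 genes higher over the settings, the liver X receptor list 3 lower after quantile normalization, the esterification list 3 higher with FPKM, the fatty acid list 2 lower with median-ratio scaling, the steroid hormone list 1 lower under 8 settings, and the oxysterol list 2 lower with no filter on low values. Leaving out 1 library in turn gave 11 to 12 members higher, 5 to 6 lower and a median of 0.06 to 0.16.

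The replicate numbers did not pair the libraries. The deviations of same-numbered libraries correlated at 0.026, 0.033 and 0.011 across genes, none above 0.1. Normoxic libraries 1 and 2 correlated best with the hypoxic library of their own number, and normoxic library 3 with hypoxic library 2. With the replicate block 11 members were higher and 7 lower: Npc2 was not called (adjusted p = 0.0662, limma) and Dhcr7 was called lower (log2 fold change −0.25, adjusted p = 0.0179, limma). Depth was similar between libraries. An uncalled member is not shown to be unchanged, and its 95% interval gives the changes that these libraries allow.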
